A study of Homo sapiens with 10 samples.

Results

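H3K9me3 peaks that were present in HEK293T cells depleted of CGGBP1, and absent from both the control cells and the input DNA, are described here. A peak of the H3K9me3 list of the knockdown (KD) was taken as gained when it overlapped by 1 bp no peak of the control (CT) H3K9me3 list and no peak of the Input list. Of the 8356 H3K9me3 peaks in KD, 3592 were gained, and this share of 43.0% is fixed by the rule and is not a result. The members were therefore chosen by the H3K9me3 lists of CT and KD and the Input list, and their gene context, sequence, other marks and CTCF peaks were not used to choose them.

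The study asked how CGGBP1 affects CTCF occupancy and the histone marks around it. The cells were HEK293T, an established human embryonic kidney cell line. By lentivirus, CT cells received a non-targeting control shRNA, KD cells an shRNA against CGGBP1, and a further set CGGBP1 itself for overexpression (OE). The shRNA cells were selected with puromycin. Ion Torrent single-end ChIP-seq gave 1 library each of H3K4me3, H3K9me3 and H3K27me3 in CT and KD, 1 of CTCF in CT, KD and OE, and 1 Input whose transduced source is not named. With 1 library per condition no difference between CT and KD could be held against replicates, and none was tested.

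The lists hold positions only, so peak height and read depth behind a peak are unknown. The antibody that the labels give to H3K9me3 is the one the methods give to H3K27me3, and the reverse, so each list was taken here for the mark in its title. Known targets of the marks did not settle which is right. The 261 zinc finger genes of chromosome 19, often marked by H3K9me3, held 4.64 peaks per Mb of the H3K9me3 list in CT and 2.13 in KD, no more than the 4.82 and 2.73 per Mb of the whole lists. The H3K27me3 lists had 0.502 per Mb there in both conditions, under their 1.90 and 1.5 over all chromosomes. Of the 39 HOX genes, frequent Polycomb targets, none held a peak of either H3K27me3 list, while 2 held a peak of the H3K9me3 list in CT and 3 in KD. The depletion of CGGBP1 itself cannot be read from these lists, which hold 7 H3K4me3 peaks in the CGGBP1 gene in CT and 8 in KD.

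H3K9me3 is the mark of constitutive heterochromatin. It is laid down by the SUV39H and SETDB1 methyltransferases, bound by HP1 proteins, and found over centromeric satellites, young LINE-1 and other transposable elements, and clusters of zinc finger genes. CGGBP1 is a DNA-binding protein known to occupy CGG-rich and interspersed repeats, while CTCF marks the borders and loops of chromatin domains and H3K4me3 marks active promoters.

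The gained peaks fell into sequence classes, and the sequence of 1 member of the largest class, low repeat content, is shown because that class was nearly absent from the KD peaks shared with CT. It lies at chr5:95446799-95447098 of hg38, on the + strand in an intron of FAM81B, and is 1 of the widest members of at most 300 bp in its class that overlap no exon. Capitals mark the 26 bases, 8.67% of its length, that lie in a 24-mer present at least 10 times in the genome.
low repeat: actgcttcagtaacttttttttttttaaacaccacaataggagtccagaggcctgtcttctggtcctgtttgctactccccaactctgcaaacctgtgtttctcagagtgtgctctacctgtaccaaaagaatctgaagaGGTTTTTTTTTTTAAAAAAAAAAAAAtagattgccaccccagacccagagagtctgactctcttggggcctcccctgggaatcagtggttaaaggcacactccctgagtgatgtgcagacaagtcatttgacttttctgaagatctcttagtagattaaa

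The KD peaks that were not gained fall into groups that serve as the comparison. In KD 4567 peaks overlapped a CT peak, 1999 overlapped an Input peak and 1802 overlapped both, so that 197 of the 3789 peaks absent from CT were set aside for lying on Input. The 2765 KD peaks on a CT peak and on no Input peak are called kept, and the 9823 CT peaks on no KD and no Input peak are called lost. A regular grid of 29370 windows of 200 bp, 1 every 100 kb, gives the genome's own share of each feature.

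The distance from gained peaks to the lists that chose them is fixed in part by the rule and is given as a description. On sequences that hold a CT or Input peak lay 3576 members. Their median distance to the nearest such peak was 41.8 kb, and 250 of them (6.99%) lay within 1 kb of it. The member closest to removal was an alpha satellite peak of 255 bp at chr10:40892275-40892529, 35 bp from the nearest CT or Input peak. The next gaps were 42, 48, 52 and 64 bp, the last at an exon of COL6A3. Just outside the rule, the KD peak at chrX:45589782-45589969, in a LINE-1 of an intron of LINC01204, shared 13 bp with such a peak, and the next overlaps were 14, 21, 27 and 37 bp.

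The gained peaks covered 669.6 kb in all and were narrow. Their median width was 162 bp, and 1460 of them (40.6%) had exactly the narrowest width in the KD list, 157 bp. Kept peaks had a median width of 198 bp and 263 (9.51%) had the narrowest width. Lost peaks were as narrow, with 50.4% at the narrowest width of the CT list, 161 bp. Width thus moved with the comparison of gained with kept peaks. Among peaks wider than the narrowest width, a comparison chosen after seeing the data, the gained minus kept difference stayed negative for repeated bases (-24.8 points), for H3K27me3 of KD (-31.2 points) and for CTCF of KD within 10 kb (-13.2 points).

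Repeated sequence made up most of the gained peaks, but far less of them than of the kept peaks. Repeated bases are those within any 24-mer that hg38 holds at least 10 times over both strands, and by this measure 65.4% of the bases under gained peaks were repeated (95% interval 63.8 to 66.9, with peaks as units). The share was 98.6% under kept peaks, 52.3% under lost peaks, 94.3% under KD peaks on Input and 23.4% in the grid. Gained peaks thus sat between the genome and the peaks that persisted. All intervals on shares are exact Clopper-Pearson and those on differences are Newcombe, and they cover counting error only, since neighbouring peaks and copies of 1 repeat are not independent.

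Single peaks were mostly either fully repeated or not repeated at all. At least 0.5 of the bases were repeated in 2309 gained peaks (64.3%), against 84.0% of all KD peaks, 99.5% of kept peaks and 22.7% of grid windows. All bases were repeated in 1932 gained peaks (53.8%) and in 88.7% of kept peaks. No base was repeated in 998 gained peaks (27.8%, 26.3 to 29.3) and in 10 kept peaks (0.362%). The KD list thus held nearly all its peaks without repeated bases among the gained ones. Median GC was 39.2% in gained and in kept peaks.

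The classes were drawn up after the data had been seen, from tandem periods and from likeness to a full-length LINE-1 and an Alu. These 2 copies were taken from repeated stretches of the reference that lie under gained peaks, so they were not chosen independently of the members. Low repeat peaks, with under 0.5 of their bases repeated, were the largest class, with 1265 members (35.2%, 33.7 to 36.8). Alpha satellite followed with 966 (26.9%, 25.4 to 28.4), then LINE-1 with 863 (24%, 22.6 to 25.5), Alu with 278 (7.74%), other repeats with 161 (4.48%) and other tandem repeats with 59 (1.64%). No class held most of the gained peaks.

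Against kept peaks, the gained set traded LINE-1 and alpha satellite for low repeat sequence. Low repeat peaks were 14 of the 2765 kept peaks (0.506%), so the gained share was higher by 34.7 points (33.1 to 36.3). LINE-1 made up 53.1% of kept peaks, and the difference, gained minus kept, was -29.1 points (-31.4 to -26.7). The alpha satellite share differed by -9.35 points (-11.6 to -7.04) and the Alu share by 2.42 points (1.20 to 3.63).

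**Figure D1:**
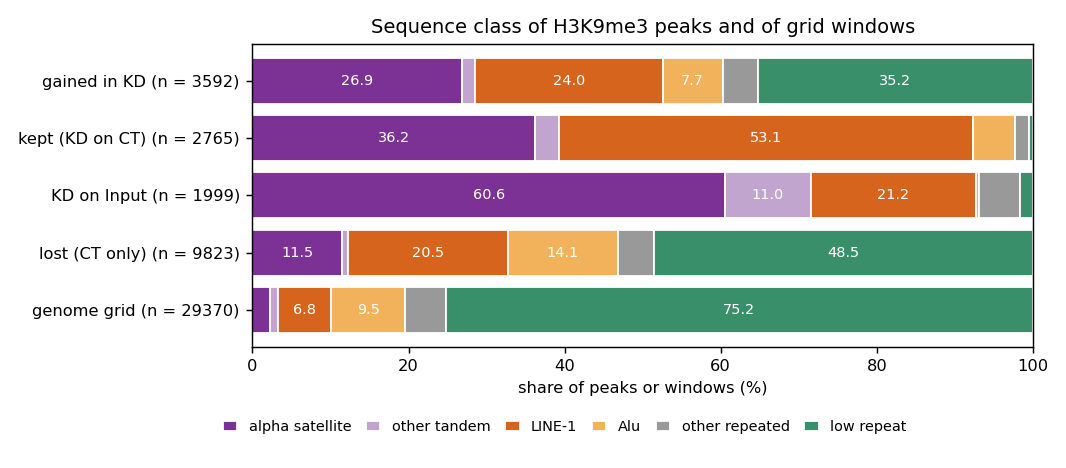
Each horizontal bar splits a set of peaks, or the grid windows, into sequence classes (horizontal axis, percent of the set), for gained peaks, kept peaks, KD peaks on Input, lost peaks and the grid. Low repeat sequence is 35.2% of gained and 0.506% of kept peaks, and LINE-1 is 24% and 53.1%.

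The gained and the lost peaks, which belong to different libraries, also differed in make-up. Low repeat sequence was 48.5% of lost peaks, and the gained share was lower, by -13.3 points (-15.1 to -11.4). Alpha satellite was 11.5% of lost peaks, and the gained share was higher by 15.4 points (13.8 to 17.0). Alu was 14.1% of lost peaks against 7.74% of gained peaks. Alpha satellite was thus the class in which the gained set exceeded the lost set most. Of the KD peaks on Input, 60.6% were alpha satellite and 0.350% Alu.

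Alpha satellite is the tandem repeat of human centromeres, built from units that differ between neighbours and recur in higher-order arrays. In the 1000 bp around the peak centre, 326 of the 966 alpha satellite members (33.7%) matched themselves best about 1 unit on, most often at 171 bp. The other 640 (66.3%) matched best about 2 units on, most often at 340 bp. Matching bases at the best shift had medians of 56.5% and 59.8%. The match 2 units on was the more frequent layout, as it was in kept alpha satellite peaks (68.8%) and in grid windows (57.8%).

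The CENP-B box, bound by the centromere protein CENP-B, was present in many of these arrays. Its fixed positions, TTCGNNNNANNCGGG, were searched on both strands of the central 150 bp. They were found in 331 alpha satellite members (34.3%, 31.3 to 37.4), in 34.4% of kept alpha satellite peaks and in 27.9% of alpha satellite grid windows. Among all gained peaks 340 (9.47%) held the box, against 13.0% of all KD peaks, 12.8% of kept peaks and 0.661% of grid windows. Gained and kept centromeric peaks did not differ in this share beyond their intervals.

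No gained alpha satellite peak lay in a gene, as was the case for the 1002 kept ones, and the fullest windows were nearly all alpha satellite. The 10 windows of 1 Mb with the most members held 294 (8.35%) of the members on chromosomes 1 to 22, X and Y, and 289 of these were alpha satellite, out of 950 such members on these chromosomes. The same windows held 23 to 60 kept and 18 to 57 lost peaks each. The fullest was chr10:40000001-41000000 with 41 members beside 60 kept, 57 lost and 69 Input peaks, followed by chr1:123000001-124000000 with 31, and by chr10:41000001-42000000 and chr19:25000001-26000000 with 30 each. The others, on chromosomes 1, 5, 14, 19 and 21, held 26 to 29. The widest alpha satellite members were 500 bp at chr11:53965344-53965843, 461 bp at chr22:14578003-14578463, 460 bp at chr13:17244901-17245360, 436 bp at chr21:12109477-12109912, 420 bp at chr19:25137384-25137803 and 414 bp at chr10:40999127-40999540. By chromosome, alpha satellite members were most numerous on chromosome 5 with 82, chromosome 1 with 77, chromosome 10 with 76 and chromosome 19 with 73.

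LINE-1 members came mainly from the 3′ part of the element and from young copies. LINE-1 is the autonomous retrotransposon of the human genome, whose copies are often cut short at the 5′ end. Positions were read along a 6143 bp copy on chromosome 1, at chr1:237019426-237025568 on the - strand, with open reading frames of 3828 and 1017 bp. The median gained position was 4897 bp from its 5′ end, 364 of the 863 members (42.2%, 38.9 to 45.6) lay in the last 1 kb and 13 (1.51%) in the first. Kept peaks had 41.2% and LINE-1 grid windows 33.4% in the last 1 kb.

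The LINE-1 members were close to the full-length copy in sequence. Their median identity to it was 97.1%, against 97% in kept peaks and 85.5% in grid windows, and the copy itself was taken from under a gained peak. A repeated stretch of 5.5 to 7 kb, the length of a whole element, surrounded 317 of them (36.7%), and the median stretch was 3959 bp. Stretches were measured around gained peaks only, so whether this share differs from other LINE-1 peaks or the grid was not tested. The wide member at chr6:161176046-161176472, 427 bp in an intron of AGPAT4, was of this class. Identity and the share in the last 1 kb were thus close in gained and kept LINE-1 peaks, while both sets stood apart from LINE-1 in the grid. By bins of 500 bp, gained peaks had 30.5% from 5.5 to 6 kb, against 24.1% of kept and 29% of lost peaks, and 16.0% from 5 to 5.5 kb, against 23.4% of kept and 21.1% of lost peaks.

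**Figure D2:**
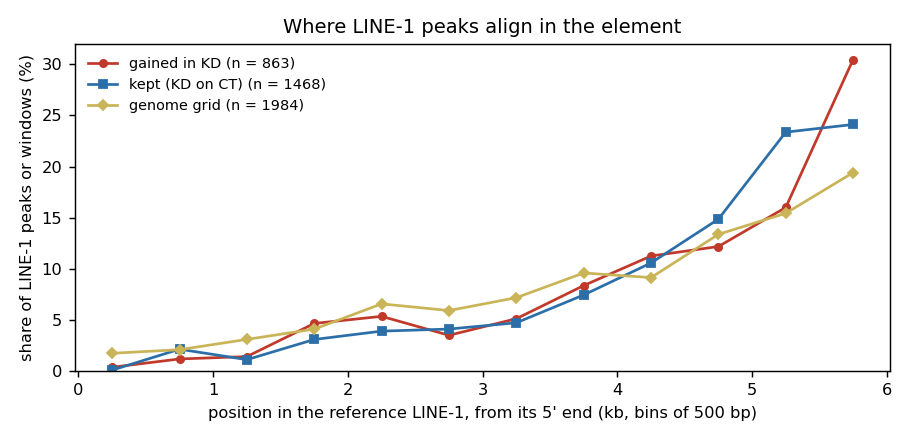
Share of LINE-1 peaks (vertical axis, percent) by position along the 6143 bp element (horizontal axis, kb from the 5′ end, bins of 500 bp) for gained and kept peaks and for LINE-1 grid windows, with the incomplete last bin not drawn. Gained peaks rise to 30.5% in the bin from 5.5 to 6 kb, where kept peaks have 24.1%, and lie under them in the bin before it, at 16.0% against 23.4%.

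Alu and the remaining repeat classes were small. Alu is the abundant short retrotransposon derived from 7SL RNA, and the reference copy used, at chr3:43119573-43119898 on the - strand, was 326 bp long and 89.5% identical to RN7SL1 over 76 bp. The 278 Alu members had a median GC of 53.5%, against 39.2% in all gained peaks. Among the other tandem members, 9 had a period of 5 bp, 5 of 49 bp and 3 of 137 bp. The widest of all gained peaks, 570 bp at chr20:60409366-60409935 in an intron of the RNA gene MIR646HG, was a tandem repeat.

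Short motifs were searched on both strands of the same central 150 bp. GGAAT, the unit of human satellites 2 and 3, occurred in 1344 gained peaks (37.4%). All KD peaks had 41.8%, kept peaks 42.4% and grid windows 27.7%. It occurred in 49.1% of alpha satellite, 46.7% of LINE-1 and 29.2% of low repeat members, and in 28.7% of low repeat grid windows. A single copy thus does not mark these satellites. Only 15 members held 10 or more copies, with 24 at most. TTAGGG, the telomere unit, occurred in 141 gained peaks (3.93%), in 2.94% of all KD peaks and in 4.95% of grid windows. CGGCGGCGG, 3 CGG triplets in a row, occurred in 2 gained peaks (0.0557%) and in 18 grid windows (0.0613%). With 2 gained peaks (0.00674 to 0.201%), a difference from the grid in this motif was not detectable.

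Gained peaks lay in genes more often than kept peaks, and less often than the genome at large. Overlap with an annotated gene was found for 1608 gained peaks (44.8%, 43.1 to 46.4), against 33.3% of all KD peaks, 31.8% of kept peaks, 55.4% of lost peaks and 60.9% of grid windows. The difference from kept peaks was 13.0 points (10.6 to 15.4) and from lost peaks -10.6 points (-12.5 to -8.72). In exons lay 180 gained peaks (5.01%), against 2.85% of all KD peaks, 0.976% of kept peaks, 5.14% of lost peaks and 7.26% of grid windows. A further 1428 (39.8%) lay in introns only, against 30.4% of all KD peaks, 50.2% of lost peaks and 53.6% of the grid. In both contexts gained peaks thus stood above kept peaks and under the genome. Without alpha satellite, an alternative chosen after seeing the data, the share of gained peaks in genes was 61.2% (59.3 to 63.1). The 60.9% of the grid still includes its 673 alpha satellite windows, 11 of them in genes, so these 2 shares are not over like sets.

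The gene share followed sequence class. It was 0 of 966 in alpha satellite, where a count of 0 allows up to 0.381%, then 33.9% in other tandem repeats, 53.1% in LINE-1, 66.5% in Alu and 68.2% (65.6 to 70.8) in low repeat members. The corresponding grid shares were 50.1% for LINE-1, 64.8% for Alu and 63.8% for low repeat windows. In exons lay 11.9% of low repeat members and 8.69% of low repeat windows, a difference of 3.17 points (1.46 to 5.10). Within LINE-1, gained peaks differed from kept peaks by 1.64 points (-2.56 to 5.82). Where the strand of the gene was unambiguous, 101 of 285 LINE-1 members in genes (35.4%, 29.9 to 41.3) had the strand of the gene, against 34.9% of LINE-1 grid windows.

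**Figure D3:**
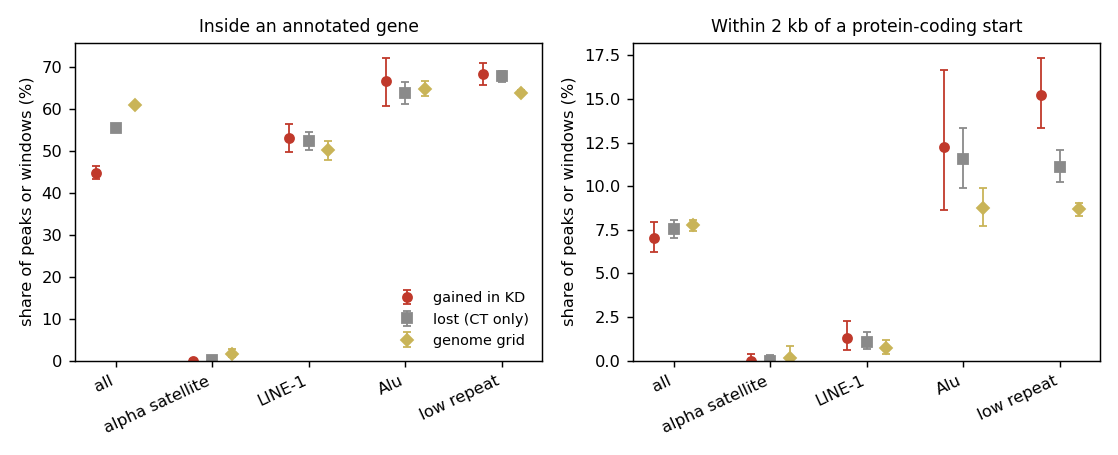
Share of gained peaks, lost peaks and grid windows (vertical axes, percent) inside an annotated gene (left) and within 2 kb of a protein-coding start (right), over all and by sequence class, with exact 95% intervals as bars. Gained peaks are in genes in 44.8%, under lost peaks at 55.4% and the grid at 60.9%, and near starts 15.3% of low repeat members stand above 11.1% and 8.68%.

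Regions near transcript starts held gained peaks mainly of the low repeat class. A start is here the 5′ end of any annotated transcript of a gene, so it can lie inside the gene, away from its main promoter. Within 2 kb of a protein-coding start lay 253 gained peaks (7.04%, 6.23 to 7.93), against 1.12% of kept peaks, 7.54% of lost peaks and 7.75% of grid windows. Of these, 193 were low repeat members, which is 15.3% (13.3 to 17.4) of that class. The same share was 11.1% in lost low repeat peaks and 8.68% in low repeat grid windows.

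Of 20033 protein-coding genes, 1095 (5.47%) held a gained peak in the gene body, 130 in an exon and 283 within 2 kb of a start. Exon members of protein-coding genes numbered 124, and 110 of them were low repeat. The widest, 410 bp at chr10:84139078-84139487, crossed the start of GHITM, a gene for an inner mitochondrial membrane protein, and overlapped H3K4me3 in both conditions. The start of ZNF407, a zinc finger gene, carried 1 of 358 bp, also with H3K4me3 in both. The exon peak of 319 bp in LAMA3, a laminin chain, and that of 295 bp in TTN, the giant protein of the sarcomere, overlapped no H3K4me3 peak.

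Some exon members lay between genes that point away from each other. A peak of 289 bp covered the starts of FKBP10, a collagen chaperone, and P3H4, and 1 of 261 bp those of KIAA1143 and KIF15, a mitotic kinesin, and both overlapped H3K4me3 in CT and KD. Among further exon members were those in HMCN2 (272 bp), LUC7L2 and its readthrough gene (258 bp), CNPY1 (255 bp, Alu), CSRNP3 (253 bp), NIN (252 bp), CAPN3 (250 bp), LMNB1, the gene of lamin B1 (237 bp), and HGF, the hepatocyte growth factor (235 bp). The exon peak of ZNF3 (292 bp) was the other Alu in this group. H3K4me3 overlapped the LUC7L2 peak in KD only and the CAPN3 peak in CT only.

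COL6A3, which encodes a chain of collagen VI, was the gene with the most exon members, 3, all of low repeat content. They lay at chr2:237340458-237340614, chr2:237368746-237369008 and chr2:237396779-237396936. H3K4me3 in CT overlapped the first and second of them and H3K4me3 in KD overlapped none.

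Further starts with a wide gained peak belonged to genes of varied function, and some were starts of transcripts that begin inside the gene. They included DUSP19, a phosphatase (396 bp), CYP4B1, a cytochrome P450 (379 bp, LINE-1), ZFAND3 (369 bp), FAM193B (326 bp), LCN15 (307 bp), USP17L11 (302 bp), SERTAD4 (298 bp), HMCN1 (293 bp), IFT172, of the ciliary transport machinery (291 bp), NPR3, a natriuretic peptide receptor (290 bp), PACS1 (286 bp) and RPS3, a ribosomal protein (283 bp). The peaks at CYP4B1, LCN15, SERTAD4 and IFT172 lay inside the gene, more than 2 kb from its outermost start. The peaks at ZFAND3, FAM193B, LCN15, HMCN1 and PACS1 overlapped H3K4me3 in both conditions. Those at CYP4B1, USP17L11, SERTAD4, IFT172, NPR3 and RPS3 overlapped it in neither, and that at DUSP19 in CT only.

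Genes with several members were mostly long. ANK3, DPP10 and RARB, a retinoic acid receptor, held 4 each, and CACNA1D, COL6A3, CSMD3, CTNNA3, FHIT, MACROD2 and MAST4 held 3 each, with 18 genes at 3 or more. All 4 in RARB and all 3 in FHIT were low repeat, whereas the 3 in CTNNA3 were LINE-1.

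The gene families looked at for this mark are given beside all protein-coding genes, with no share read as high or low where its interval holds the background. Zinc finger genes with a member were 22 of 566 (3.89%, 2.45 to 5.83), against 5.47% of all protein-coding genes, and their density of 0.977 members per Mb was close to the 0.908 of all. Olfactory receptor genes had 2 of 416 (0.481%, 0.0583 to 1.73), OR2G6 and OR8G1, both in LINE-1, and keratin genes had 0 of 149 (up to 2.45%), but these genes are short, covering 2.66 and 0.634 Mb in all, and the olfactory receptor genes had 0.751 members per Mb. Clustered protocadherins had 0 of 53 (up to 6.72%) and histone genes of chromosome 6 had 1 of 55, H2BC4 (1.82%, 0.0460 to 9.72). HOXA3, HOXA6 and HOXA9 were the 3 of 39 HOX genes with a member (7.69%, 1.62 to 20.9), through 2 peaks. The HOX and histone gene densities, 6.06 and 7.06 members per Mb, rest on 2 peaks and 1 peak over 0.330 and 0.142 Mb. Of 20 genes for H3K9 methylation and its readers and erasers none held a member, and neither did CGGBP1 or CTCF, whose nearest members lay 102 kb and 778 kb away.

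H3K27me3 lay on a minority of gained peaks, almost all of them repeats. The list of this Polycomb mark in KD overlapped 380 gained peaks (10.6%, 9.59 to 11.6), where all KD peaks had 40.4%. Kept peaks had 43.9%, KD peaks on Input 89.0%, lost peaks 2.55% and grid windows 0.0715%. In CT the H3K27me3 list overlapped 420 gained peaks (11.7%, 10.7 to 12.8), where all KD peaks had 44.4%. Without alpha satellite the gained shares were 5.71% in KD and 6.25% in CT, and among the widest 0.5 of the peaks they were 16.8% and 18.7%. The gained share in KD was lower than the kept share, by -33.3 points (-35.4 to -31.2). Gained peaks thus overlapped peaks of the H3K27me3 lists less often than kept peaks, and far less often than KD peaks on Input, but far more often than grid windows.

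The H3K27me3 peaks at gained sites differed in part between the conditions. Both lists overlapped 228 gained peaks, CT alone 192, KD alone 152 and neither 3020. The same counts were 994, 426, 219 and 1126 in kept peaks, and 106, 149, 144 and 9424 in lost peaks. Of the 380 with H3K27me3 in KD, 60.5% were alpha satellite and 28.7% LINE-1. Most gained sites with the mark in KD thus had a peak of it in CT as well. So had most kept sites, but not most lost ones.

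Within each repeat class the gained peaks kept the lower share. In alpha satellite 230 members (23.8%, 21.2 to 26.6) overlapped H3K27me3 in KD, against 51.0% of kept peaks, and in LINE-1 109 members (12.6%, 10.5 to 15) against 38.3%. Among low repeat members only 2 of 1265 (0.158%) did so in KD and 10 (0.791%) in CT. The widest members with H3K27me3 in KD included the alpha satellite peaks of chromosomes 11 and 13 named before, 1 of 368 bp at chr10:40555680-40556047, 1 of 339 bp at chr15:19784313-19784651, and 1 of 337 bp at chr22:21324528-21324864 in an exon of FAM230H. The chromosome 13 member overlapped H3K27me3 in both conditions and the chromosome 11 member in KD only.

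H3K4me3, the promoter mark, overlapped more of the gained peaks than H3K27me3 did, from a much longer list. In KD the H3K4me3 list had 81932 peaks over 55.1 Mb and the H3K27me3 list 4804 peaks over 1.14 Mb, and 177 gained peaks (4.93%) overlapped both. It overlapped 532 in KD (14.8%, 13.7 to 16.0) and 507 in CT (14.1%, 13.0 to 15.3), where all KD peaks had 41.9% and 42.0%. Kept peaks had 41.7% in KD, KD peaks on Input 91.0%, lost peaks 6.27% and grid windows 2.48%. The difference between gained and kept peaks was -26.9 points (-29.1 to -24.7). Both lists overlapped 380 gained peaks, CT alone 127 and KD alone 152. The same counts were 887, 260 and 267 in kept peaks, and 510, 193 and 106 in lost peaks.

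Sites with H3K4me3 included low repeat sequence, partly near protein-coding starts, and repeats. Of the 532 in KD, 38.3% were low repeat, 33.1% alpha satellite and 16.2% LINE-1, and 115 (21.6%) lay within 2 kb of a protein-coding start. Of the 204 low repeat sites, 104 lay within 2 kb of a protein-coding start. Low repeat members near such a start overlapped H3K4me3 in KD in 104 of 193 cases (53.9%), against 310 of 1918 low repeat grid windows near a start (16.2%). Among repeats, 176 alpha satellite members (18.2%) and 86 LINE-1 members (9.97%) overlapped it. All KD peaks had 53.4% in alpha satellite and 38.2% in LINE-1, and kept peaks 42.5% and 39.7%. In CT the gained LINE-1 count was 54 (6.26%), so 51 LINE-1 members had H3K4me3 in KD only and 19 in CT only. Kept LINE-1 peaks had 145 in KD only and 115 in CT only, and lost ones 25 and 42. Gained Alu peaks had 13 in KD only and 1 in CT only, kept Alu peaks 19 and 2, and lost ones 9 and 11.

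The widest member with H3K4me3 in KD, 429 bp at chr9:122122923-122123351, was a low repeat peak 20.7 kb from NDUFA8, a respiratory chain gene, with CTCF overlap in CT and KD. Next came those at GHITM, at the divergent transcript of ZFAND3 and at ZNF407, and 1 of 347 bp in an intron of SPTSSB that had H3K4me3 in KD only. The 430 bp low repeat member at chr2:100292567-100292996, in an intron of LONRF2, had it in CT only.

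**Figure D4:**
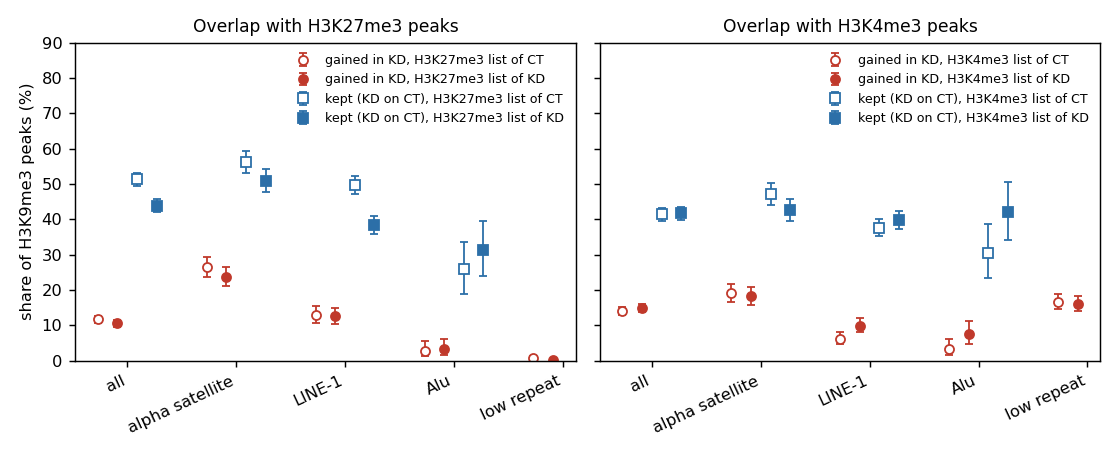
Share of gained and kept H3K9me3 peaks (vertical axis, percent) that overlap H3K27me3 (left) or H3K4me3 (right) peaks of CT (open) and KD (filled), over all peaks and by sequence class, with exact 95% intervals as bars and the 14 kept low repeat peaks not drawn. Gained peaks lie lower than kept peaks in every class where both are drawn, and H3K27me3 is near 0 in low repeat members.

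CTCF peaks were found within 10 kb of about as many gained peaks in KD as in CT, from lists of unequal length, 42978 peaks in CT and 47632 in KD. With both lists reduced to the same number of widest peaks the shares were 52.8% in CT and 47.4% in KD, and with 1 library each neither this nor any other difference between the CT and KD lists was tested. In CT 1895 gained peaks (52.8%, 51.1 to 54.4) had such a neighbour, where all KD peaks had 73.1%. In KD 1835 (51.1%, 49.4 to 52.7) did, where all KD peaks had 68.2%. The OE list gave 1787 (49.7%). In the grid the shares were 24.5%, 26.0% and 24.8%. With the CTCF lists made from repeat-masked reads, the gained shares were 14.4% in CT and 13.5% in KD, and those of the grid 16.6% and 14.6%. Gained peaks thus had CTCF nearby more often than the genome in the unmasked lists, and not in the repeat-masked ones.

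Kept peaks were closer to CTCF than gained peaks in the unmasked lists. They had 81.8% in CT and 69.9% in KD, and the differences, gained minus kept, were -29.1 points (-31.2 to -26.9) in CT and -18.8 points (-21.2 to -16.4) in KD. With the repeat-masked lists the order turned in both conditions, with 14.4% of gained and 9.29% of kept peaks in CT, and a KD difference of 5.87 points. Gained peaks had a median distance of 8.34 kb to CTCF in CT, 9.34 kb in KD and 10.1 kb in OE, against 27, 26.1 and 27.5 kb in the grid.

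The totals of the full lists were in part made up of different sites. Both CT and KD had CTCF within 10 kb of 1416 gained peaks (39.4%), CT alone of 479 (13.3%), KD alone of 419 (11.7%) and neither of 1278 (35.6%). For both, CT alone and KD alone, kept peaks had 64.1%, 17.7% and 5.82%, and lost peaks 24.7%, 13.7% and 11.4%. Grid windows had 14.7%, 9.82% and 11.2%. Direct overlap was found for 872 gained peaks with the CT list (24.3%), 758 with KD (21.1%), 476 with both and 651 with OE (18.1%). All KD peaks had 52.8% in CT, 48.7% in KD and 51.3% in OE, and the grid 0.708%, 0.844% and 0.780%, so gained peaks lay between them. KD peaks on Input had 86.8%, 91.5% and 98.0%. The widest members with a CTCF peak within 10 kb in KD and none in CT lay at GHITM, in introns of SMAP1 and of a gene without a symbol, 34.6 kb from H2BC13, and in alpha satellite of chromosome 16. The widest with 1 within 10 kb in CT and none in KD were the alpha satellite peak of chromosome 13, a LINE-1 of 394 bp on chromosome 9, a repeat 13.2 kb from CREB5, a low repeat peak in MIR3171HG, and that at ZFAND3.

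By class, the difference between the CT and KD lists went in opposite directions. Among LINE-1 members, 350 (40.6%, 37.3 to 43.9) overlapped a CTCF peak in CT, 190 (22%, 19.3 to 24.9) in KD and 96 (11.1%, 9.10 to 13.4) in OE, where all KD peaks in LINE-1 had 62.0%, 43.5% and 47.6%. The overlap was with CT only in 202 and with KD only in 42. Alu members followed the same order for CT and KD, with 41 (14.7%) in CT, 12 (4.32%) in KD and 13 (4.68%) in OE, where all KD peaks in Alu had 30.8%, 15% and 16.7%. Gained H3K9me3 peaks on LINE-1 thus lay on CTCF peaks of the control more often than on CTCF peaks of the knockdown.

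Alpha satellite and low repeat members had somewhat more CTCF overlap in KD, where the CTCF list was longer, as had several other sets, but not lost alpha satellite peaks (36.8% in both). In alpha satellite 39.6% overlapped CTCF in CT (36.5 to 42.8), 44.6% in KD (41.5 to 47.8) and 42.9% in OE, and 86.2% and 87.6% had CTCF within 10 kb in CT and KD. Low repeat members overlapped it in 55 cases in CT (4.35%, 3.29 to 5.62) and 77 in KD (6.09%, 4.83 to 7.55), with 8 in CT only and 30 in KD only. Within 10 kb, low repeat members had 28.5% in CT and 33.7% in KD, and LINE-1 members 56.1% and 40.9%. Lost low repeat peaks had 26.8% and 29.9%, and low repeat grid windows 23.1% and 24.7%. Kept LINE-1 peaks had 74.9% and 54.8%, lost ones 43.9% and 24.9%, and LINE-1 grid windows 25.6% and 20.9%. From CT to KD the share with direct overlap went from 66.2% to 70.3% in kept alpha satellite. It went from 2.48% to 3.67% in lost low repeat peaks and from 0.593% to 0.837% in low repeat grid windows. All KD peaks of these classes had direct overlap in 65.3% in CT and 71.3% in KD in alpha satellite, and 6.47% and 8.45% in low repeat sequence.

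In LINE-1, the lower CTCF share in KD than in CT was also found in kept and lost peaks and in LINE-1 grid windows, which had 1.31% in CT and 0.353% in KD. Kept LINE-1 peaks had a CTCF peak on them in 65.2% of cases for CT, 44.3% for KD and 54.4% for OE, and lost LINE-1 peaks in 20.7%, 7.31% and 12.9%. The OE share was the lowest of the 3 in gained peaks, whereas in kept and lost peaks it lay between CT and KD.

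**Figure D5:**
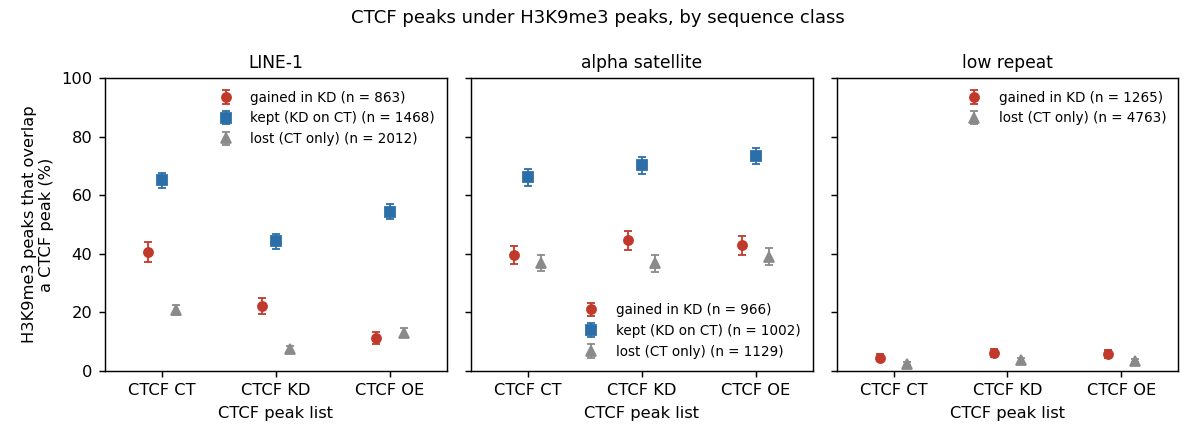
Share of H3K9me3 peaks (vertical axis, percent) that overlap a CTCF peak of CT, KD or OE (horizontal axis) for gained, kept and lost peaks in LINE-1, alpha satellite and low repeat sequence, with exact 95% intervals as bars and the 14 kept low repeat peaks not drawn. Gained LINE-1 peaks go from 40.6% in CT to 22% in KD and 11.1% in OE.

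A sequence like the CTCF motif was found under few gained peaks. The consensus core CCANNAGNNGGC, on both strands of the central 150 bp, occurred in 19 members (0.529%), in 0.239% of all KD peaks and in 0.388% of grid windows. All 19 were low repeat members, 1.5% of that class, where low repeat grid windows had 0.462%. CTCF overlapped 9 of them in CT, 14 in KD and 13 in OE. None of the 863 LINE-1 members held these letters in the searched window, with or without CTCF overlap. Of other LINE-1 sequence, 0 of 1468 kept peaks, 3 of 2012 lost peaks and 4 of 1984 grid windows held them. The window was centred on the H3K9me3 peak and not on the CTCF peak, so the search does not show whether the CTCF peaks hold the core.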

How the data were processed

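The H3K9me3, H3K27me3, H3K4me3, CTCF and Input lists hold peak positions in bp (start, end) on hg38, deposited by the authors, who mapped reads with bowtie2, called peaks per library with MACS2 and compared lists with bedtools. The p thresholds per the labels were 0.001 for histone and Input lists, 0.0025 for CTCF in CT and KD and 0.005 for CTCF in OE, while the methods give 0.005 for all lists of unmasked reads. No normalization applies to positions. The 10 libraries gave 13 lists that were used, 3 of them CTCF lists from repeat-masked reads, and 6 lists of exclusive CTCF peaks were not used here. Starts were read as counted from 0.

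The members, gene lists and motifs were chosen with earlier results of these data known. Overlaps of 1 bp, distances between peak edges, 24-mer counts over 455 reference sequences and tandem periods of 2 to 400 bp were computed in Python 3.11.15 with numpy 2.4.6, numba 0.67.0, pysam 0.24.0 and samtools 1.23.1. Peaks were assigned in order to alpha satellite or other tandem repeats by their best period (at least 0.45 of bases matching over 1000 bp), then to LINE-1 or Alu by blastn 2.17.0 (expectation limit 1e-05, 0.5 of the peak aligned), then to other repeats or low repeat content. Genes came from the annotation of release 44. Intervals were computed with scipy 1.17.1 and plots with matplotlib 3.10.9. The steps were tested on simulated data. No test between conditions was run, since each had 1 library, and no paired analysis was possible.

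Members named singly, on chromosomes 1 to 22, X and Y, were the 10 widest, the 5 widest with each mark of KD, the 5 widest with CTCF within 10 kb in KD or CT alone, and the 5 on each side of the rule's limit. The FAM81B member shown as sequence and the exon members of COL6A3 were named besides. Genes named were taken from the 20 with the widest exon members, the 20 with the widest members within 2 kb of a start, and the 10 with the most members, besides those in gene lists with 5 or fewer members. The gene lists were zinc finger, olfactory receptor, clustered protocadherin, HOX, chromosome 6 histone and keratin genes, 20 genes of H3K9 methylation, and CGGBP1 with CTCF. Alternatives changed the overlap and distance limits, the repeat count, the gene set, the peaks and chromosomes used and the CTCF lists, and those without alpha satellite and without the narrowest peaks were added after seeing the data.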

Additional observations from a re-analysis of the deposited data

How the results depend on the processing

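The lists give no read depth, and how far a CT signal lay from the threshold at a gained peak was not tested. The Input library's transduced source is not named. The repeat count finds young, abundant repeats better than old, diverged copies, and grid windows are 200 bp wide while gained peaks have a median of 162 bp. Alternate and unplaced sequences hold 30 and 42 of the gained peaks.

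Of 115 alternative values, 55 stayed within the main interval, or for the number of gained peaks within 1.5 times of it, 59 moved beyond it and 1 changed sign. The number was 3342 without peaks within 1 kb of a CT or Input peak and 3670 when only peaks covered by at least 0.5 were removed. That last choice, chromosomes 1 to 22, X and Y alone, and starts counted from 1 moved none of their 12 values each. The causes of the moves were not tested unless the alternative's own construction shows them.

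With no CT or Input peak within 1 kb, 46.9% of gained peaks lay in genes, 63% of bases were repeated, 9.58% and 10.6% overlapped H3K27me3 of KD and CT, 50% and 48.3% had CTCF of CT and KD within 10 kb, and gained minus kept repeated bases was -35.7 points. Among the widest 0.5 of the peaks, 39.0% lay in genes, 76.1% of bases were repeated, 16.8% and 18.7% overlapped H3K27me3 of KD and CT, and 19.3% and 17.7% H3K4me3 of KD and CT. There 62.7% and 60.2% had CTCF of CT and KD within 10 kb, and gained minus kept was -22.1 points for repeated bases and -39.6 for H3K27me3 of KD. With 1 peak per group within 10 kb, 46.8% lay in genes, 50.7% and 48.8% had CTCF of CT and KD, and gained minus kept repeated bases was -34.9 points.

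Protein-coding genes alone held 33.0% of gained peaks. At a minimum of 100 occurrences 60.7% of bases were repeated, and gained minus kept was -35.5 points. Within 1 kb in place of overlap, 13.5% and 14.6% had H3K27me3 of KD and CT, and 21.6% and 20.7% H3K4me3 of KD and CT. CTCF of CT and KD lay within 5 kb of 42.9% and 41.0%, with gained minus kept at -23.7 points in KD, and within 25 kb of 70.1% and 68.0%, with -11.1 points. The CTCF lists from repeat-masked reads gave 14.4% in CT and 13.5% in KD, and the KD difference from kept peaks reversed to 5.87 points. With CTCF lists reduced to the same number of widest peaks, the KD share was 47.4% and the difference -15.7 points. Without CTCF peaks on Input the shares were 50.9% in CT and 49.1% in KD.

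The remaining alternatives were chosen after seeing the data. Without alpha satellite, 61.2% lay in genes, 52.3% of bases were repeated, 5.71% and 6.25% overlapped H3K27me3 of KD and CT, 13.6% and 12.3% H3K4me3 of KD and CT, 40.4% and 37.7% had CTCF of CT and KD within 10 kb, and gained minus kept repeated bases was -45.6 points. Among peaks wider than the narrowest width, 40.5% lay in genes, 73.8% of bases were repeated, 15.5% and 17.1% overlapped H3K27me3 of KD and CT, and 18.5% and 16.7% H3K4me3 of KD and CT. There 60.8% and 57.8% had CTCF of CT and KD within 10 kb, and gained minus kept was -24.8 points for repeated bases and -13.2 for CTCF of KD.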

Other observations

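Gained peaks were also described by how many of the other 7 lists (H3K27me3 and H3K4me3 in CT and KD, CTCF in CT, KD and OE) overlapped them. None did so for 1951 gained peaks (54.3%, 52.7 to 56.0), against 11.6% of kept peaks, 76.6% of lost peaks and 96.1% of grid windows. By class the share was 78.1% in low repeat members, 77.7% in Alu, 47.9% in LINE-1 and 22.8% in alpha satellite. At least 4 lists overlapped 377 gained peaks (10.5%) and 49.9% of kept peaks, and all 7 overlapped 42 gained peaks. Of the 1999 KD peaks on Input, only 3 (0.15%) overlapped none of these lists.

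Along the chromosomes, gained peaks averaged 1.20 per Mb of known sequence. Chromosome 22 had 2.37, chromosome 19 had 2.19 and chromosome 21 had 2.02. Without alpha satellite the average was 0.875 per Mb, with chromosome 22 at 1.23, chromosome 9 at 1.17 and chromosome 17 lowest among the autosomes at 0.567. Most gained peaks stood alone, with 90.4% more than 10 kb from any other, and the largest group held 4. Low repeat members were alone among their class in 99.1% of cases and alpha satellite members in 72.6%. The distance to the nearest CT or Input peak had a median of 5.14 kb in alpha satellite, 79.2 kb in LINE-1 and 83.3 kb in low repeat members. The narrowest width was found in 58.9% of low repeat members (56.1 to 61.6), 47.1% of Alu, 28.6% of LINE-1 and 26.7% of alpha satellite members.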
